A study of Homo sapiens with 12 samples.

Results

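Gene knock-down experiments carried their own control, a lentivirus encoding a short hairpin RNA (shRNA) against lacZ, the bacterial beta-galactosidase gene, which A673 cells do not have. A673 is an Ewing sarcoma line in which the EWSR1-FLI1 fusion encodes the transcription factor EWS-FLI1. The comparison described here set the 2 arrays labelled lacZ shRNA at 48 h against the 2 arrays labelled untreated at time 0, 4 of the 12 Affymetrix HuGene 1.0 ST arrays of the series. Arrays were taken by these labels and by no measured value, but with earlier results of these data known. Of the other 8 arrays, 2 came from cells given the solvent DMSO for 24 h, 4 from cells given actinomycin D at 5 or 50 nM over the same time, and 2 from cells with FLI1 shRNA at 48 h. They entered the fit as further groups, and the DMSO and FLI1 shRNA arrays are quoted where they bear on a gene.

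The hairpin cells were infected at 30 to 35% confluence in Polybrene at 8 µg/ml for 24 h, then kept in puromycin at 4 µg/ml for 48 h. The untreated cells were taken at 65% confluence and had no virus, Polybrene, puromycin or further culture. Virus, hairpin, Polybrene, puromycin, plating density and time in culture therefore differ together between the groups and cannot be told apart. The labels count 48 h for the hairpin arrays, whereas the protocol steps add a virus exposure of 24 h before a selection of 48 h. The design text calls the knock-down control scrambled, whereas the sample titles say lacZ. No label says that replicates came from separate cultures, so the p-values reflect the scatter among arrays alone, and that scatter may be technical.

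A lentiviral vector enters the cell as RNA, is reverse-transcribed and integrates, and a polymerase III promoter usually drives the hairpin, which Dicer and Argonaute proteins process into a small interfering RNA. Cells carry sensors for foreign RNA and DNA, and these sensors can turn on interferons and the transcription factor NF-kB. NF-kB dimers wait in the cytoplasm bound to inhibitors such as the NFKBIA product, and once freed they bind short DNA motifs beside genes for chemokines, adhesion molecules and their own inhibitors. Puromycin ends protein chains early and kills cells that lack the resistance gene carried by the vector.

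Values are log2 signals, so that a difference of 1 is a 2-fold change, and "rose" or "fell" is written only for a Benjamini-Hochberg adjusted p under 0.05 in a limma fit over 18404 genes. Array medians lay between 6.67 and 6.83, and lacZ and untreated arrays correlated at 0.995 to 0.996 across genes. The 12 measured Ewing sarcoma markers had a median level of 10.53 in both groups, against 7.44 and 7.43 for all genes, with the growth regulator CCND1 at 12.40 and 12.41 in untreated and 12.54 and 12.53 in lacZ arrays. Lowest of these markers was GLI1, with group means of 7.24 and 7.09, and 1 of the 12 rose (8.33%, against 0.815% of all genes). Epithelial, blood and endothelial markers had medians of 5.03 to 6.04, and 0 of these 34 genes changed (limma, 2 higher and 1 lower at an unadjusted p under 0.05). Their highest members were CLDN3, CD79A and EMCN, with means of 7.79, 9.24 and 9.42 in untreated and 7.90, 9.27 and 9.61 in lacZ arrays. FLI1, whose probes can also read the fusion transcript, read 8.66 and 8.79 in untreated and 8.63 and 8.45 in lacZ arrays, a difference of -0.19 ± 0.09 (SE, adjusted p = 0.37), and 7.30 and 7.08 in FLI1 shRNA arrays. EWSR1 differed by -0.01 ± 0.07 (adjusted p = 0.97).

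Few genes changed, and several of the largest rises were of genes for inflammatory proteins. In lacZ shRNA arrays 150 genes were higher than in untreated arrays (0.815% of those tested) and 416 lower (2.26%), with a median change of 0.48 among the former and -0.43 among the latter. Only 7 genes rose over 2-fold at an adjusted p under 0.01 (0.038%), namely CCL20, TNFRSF9, CXCL8, TDO2, C3, ICAM1 and QPCT. Only 6 fell by as much (0.0326%), namely MAPRE3, AAMP, DDT, C6orf47, MED10 and ACTG2. Both counts at an adjusted p under 0.05 rest on all 4 arrays: leaving out lacZ replicate 1, lacZ replicate 2, untreated replicate 1 or untreated replicate 2 left 12 to 24 genes higher and 22 to 92 lower. Because RNA was taken in bulk, a change in the share of cells that express a gene and a change within each cell cannot be told apart.

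**Figure D1:**
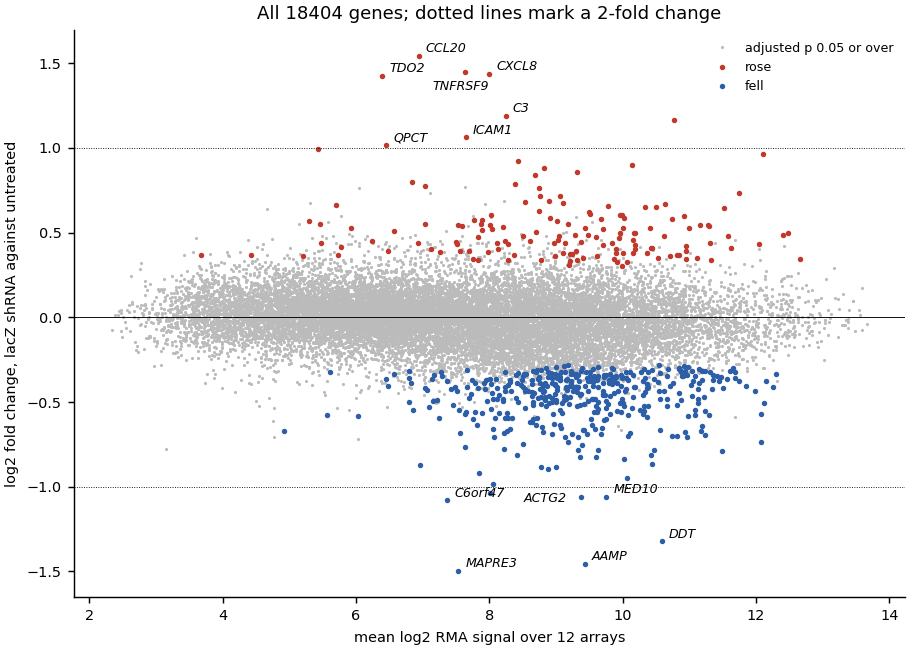
Each point is a gene, with its mean log2 signal over 12 arrays on the x axis and its log2 fold change, lacZ shRNA against untreated, on the y axis. Red points rose and blue points fell at an adjusted p under 0.05, grey points did not pass, and the 13 genes past the stricter thresholds are named. Falls are more numerous than rises (416 against 150), while the largest changes in the 2 directions are of like size (1.54 and -1.50).

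For scale, cells given DMSO for 24 h differed from the same untreated arrays by 1 gene (0.00543%), the immediate-early factor FOSB, and by 0 lower genes (limma, 742 higher and 641 lower at an unadjusted p under 0.05). FOSB, named after its values were seen, read 6.93 and 6.85 in untreated, 8.38 and 8.15 in DMSO, and 7.15 and 7.14 in lacZ arrays. FLI1 shRNA against untreated gave 2612 genes higher (14.2%) and 2222 lower (12.1%). These comparisons share the untreated arrays.

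Inflammatory genes led the rises. Promoter sequence of the 3 genes that rose over 2-fold and hold a motif of the NF-kB type is printed below, to show what such a control region looks like. It is RefSeq sequence of GRCh38.p14, the 250 bases before the annotated start read 5′ to 3′ on the gene's strand, with matches to GGAANTTCC in capitals. The windows lie at chr4:73740319-73740568 on the plus strand for CXCL8, chr1:7940840-7941089 on the minus strand for TNFRSF9 and chr19:10270870-10271119 on the plus strand for ICAM1.
CXCL8: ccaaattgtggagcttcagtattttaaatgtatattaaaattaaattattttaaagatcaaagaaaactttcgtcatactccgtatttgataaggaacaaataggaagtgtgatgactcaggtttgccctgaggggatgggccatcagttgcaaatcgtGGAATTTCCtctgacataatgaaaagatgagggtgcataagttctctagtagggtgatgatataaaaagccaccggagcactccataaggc
TNFRSF9: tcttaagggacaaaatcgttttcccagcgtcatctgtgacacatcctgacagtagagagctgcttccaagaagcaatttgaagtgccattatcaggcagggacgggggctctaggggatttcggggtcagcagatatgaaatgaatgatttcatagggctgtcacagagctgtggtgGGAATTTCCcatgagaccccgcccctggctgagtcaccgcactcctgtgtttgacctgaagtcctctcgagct
ICAM1: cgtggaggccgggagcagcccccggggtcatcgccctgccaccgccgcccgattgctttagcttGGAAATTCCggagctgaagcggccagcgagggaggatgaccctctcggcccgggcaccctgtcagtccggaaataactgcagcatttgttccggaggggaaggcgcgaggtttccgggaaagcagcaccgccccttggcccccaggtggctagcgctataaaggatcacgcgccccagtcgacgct

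Matches began 91, 73 and 186 bases before the start in CXCL8, TNFRSF9 and ICAM1. Windows of 300 bases (250 before the start and 50 after) were searched on both strands for GGAANTTCC and GGGANTTCC. The former occurs in 339 of 35116 RefSeq promoters (0.965%) and the latter in 649 (1.85%). Counted per gene over any start, as for the genes below, 317 of 27305 held GGAANTTCC (1.16%) and 914 either motif (3.35%). Of the 7 genes that rose over 2-fold, 6 had a window in the table, and 3 of these held a match. Of the NF-kB and inflammatory genes described next, 7 of the 11 that rose and have a window held either motif, as did 7 of the 14 that did not pass. A match is a string of letters and not a measured binding site.

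Part of the inflammatory list rose. Of 30 measured members of the NF-kB and inflammatory list, 12 rose (0.815% of all genes did) and 0 fell (limma, 19 higher and 1 lower at an unadjusted p under 0.05). The list's median change was 0.36, against -0.0026 for all genes, and -0.12 for DMSO against untreated. The count was 3 to 7 with lacZ replicate 1, lacZ replicate 2, untreated replicate 1 or untreated replicate 2 left out. With DMSO in place of untreated as the control, 14 rose (0.799% of all genes did).

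The 2 largest rises on the list were chemokines. CCL20, which draws lymphocytes and dendritic cells, read 6.10 and 6.41 in untreated and 7.82 and 7.77 in lacZ arrays, a log2 change of 1.54 ± 0.20 (SE, adjusted p = 0.0045). CXCL8, the neutrophil chemokine interleukin-8, read 7.13 and 7.17 against 8.51 and 8.66, a change of 1.44 ± 0.08 (adjusted p = 4.6e-05). CCL2, a monocyte chemokine, read 8.19 and 8.21 against 8.91 and 8.92, a change of 0.72 ± 0.09 (adjusted p = 0.0035). The arrays of the 2 groups do not overlap for any of these 3 genes, although 46.5% of all genes share that property with 2 arrays a side. CCL20 passed no longer with lacZ replicate 2 or untreated replicate 1 left out, with an adjusted p of up to 0.059.

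Other chemokines on the list did not pass. CXCL10, which interferon also induces, read 7.02 and 7.14 in untreated and 7.95 and 7.67 in lacZ arrays (0.73 ± 0.19, adjusted p = 0.067). CXCL1, CXCL2 and CXCL3 differed by 0.31, -0.02 and -0.06, with adjusted p of 0.20, 0.97 and 0.91. The cytokine gene IL6 stayed near 4.7 to 4.8 on all 4 arrays, and TNF differed by 0.42 ± 0.11 (adjusted p = 0.069). IL1A, which encodes the cytokine interleukin-1 alpha, read 8.24 and 8.36 against 8.93 and 8.85 and rose by 0.59 ± 0.10 (adjusted p = 0.013).

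Effectors and surface proteins rose too. ICAM1, an adhesion molecule for leukocytes, read 7.14 and 7.11 in untreated and 8.16 and 8.21 in lacZ arrays, a change of 1.06 ± 0.10 (adjusted p = 0.001). PTX3, a soluble pattern-recognition protein, read 6.14 and 6.03 against 6.89 and 6.87 (0.80 ± 0.15, adjusted p = 0.024). PTGS2, the inducible cyclooxygenase, read 7.64 and 7.88 against 8.53 and 8.51 (0.76 ± 0.09, adjusted p = 0.0032). The mitochondrial superoxide dismutase gene SOD2 read 9.18 and 9.23 against 9.86 and 9.87 (0.66 ± 0.11, adjusted p = 0.016).

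Genes of the NF-kB pathway itself rose by smaller amounts. NFKBIA, the main inhibitor, went from 10.21 and 10.39 to 10.94 and 10.97 (0.65 ± 0.10, adjusted p = 0.0083). The precursors of the p52 and p50 subunits, NFKB2 and NFKB1, rose by 0.60 ± 0.10 and 0.50 ± 0.10 (adjusted p = 0.014 and 0.033). TNFAIP3, the deubiquitinase A20 that shuts the pathway off, went from 7.28 and 7.56 to 8.03 and 7.95 (0.57 ± 0.10, adjusted p = 0.015). RELB differed by 0.34 ± 0.09 (adjusted p = 0.065).

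TNFRSF9 and C3, genes of immune function, and the enzyme genes TDO2 and QPCT rose as well and are not on the list. TNFRSF9, the co-stimulatory receptor 4-1BB, read 6.99 and 7.04 in untreated and 8.45 and 8.47 in lacZ arrays, a change of 1.45 ± 0.08 (adjusted p = 4.6e-05). C3, the central complement component, read 7.67 and 7.75 against 8.91 and 8.90 (1.19 ± 0.10, adjusted p = 0.00051). TDO2, which breaks down tryptophan, read 5.52 and 5.96 against 7.26 and 7.07 (1.43 ± 0.13, adjusted p = 0.001). QPCT, which cyclises amino-terminal glutamine, read 5.72 and 5.90 against 6.86 and 6.80 (1.02 ± 0.12, adjusted p = 0.0032). Both groups are far apart for these genes relative to the gap between replicates.

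**Figure D2:**
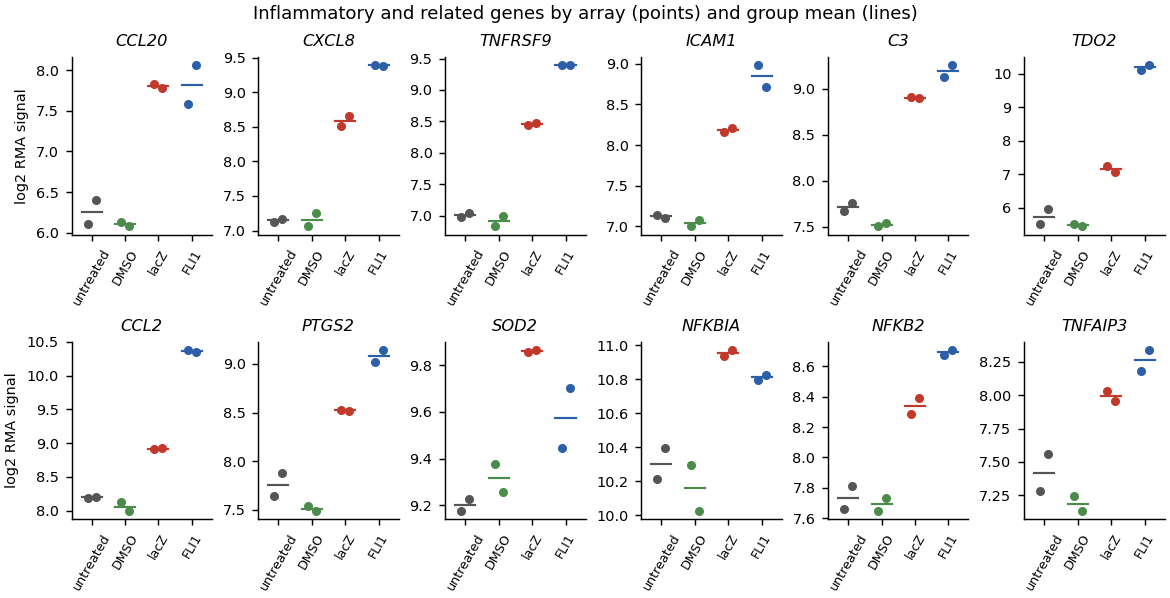
Log2 RMA signal (y axis) of 12 genes picked among those that rose, in untreated, DMSO, lacZ shRNA and FLI1 shRNA cells (x axis). Points are arrays and lines are means of the 2 arrays, with each panel on its own scale. The lacZ arrays sit above both untreated and both DMSO arrays in every panel, and FLI1 shRNA arrays are higher still for CXCL8 (9.39 and 9.39) and CCL2 (10.38 and 10.35) but lower than lacZ arrays for SOD2 (9.45 and 9.70).

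The FLI1 hairpin arrays, which had virus and puromycin too, were above both untreated arrays for all 12 members that rose. These members were chosen against the same untreated arrays, so that count is partly set by the choice. The share over all genes was not counted. They stood above both lacZ arrays for 9 of the 12, below them for NFKBIA and SOD2, and overlapped them for CCL20, at 7.58 and 8.06. TNFRSF9 read 9.39 and 9.39 and TDO2 10.12 and 10.26 in FLI1 shRNA arrays. FLI1 shRNA against DMSO has no array of the main comparison in its 2 groups, but takes the spread from the same fit. It gave 11 of the 12 as risen, against 12.7% of all genes higher in that comparison. In DMSO arrays the chemokines lay near untreated cells, with CCL20 at 6.13 and 6.08 and CXCL8 at 7.06 and 7.25.

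Few interferon and nucleic-acid sensing genes passed with lacZ shRNA, beside the NF-kB list. Of 47 interferon-stimulated genes, 1 rose and 1 fell (2.13% each, against 0.815% and 2.26% of all genes), and the median change was 0.14. At an unadjusted p under 0.05 in the limma fit, 13 of the 47 were higher and 1 lower, against 1065 and 2033 of all 18404 genes. With FLI1 shRNA against untreated, 29 of the 47 rose (61.7%, against 14.2% of all genes) and 0 fell. That comparison includes the knock-down too. With DMSO against untreated 0 rose and 0 fell (1 higher and 2 lower unadjusted). IFI6, a mitochondrial antiviral protein, went from 9.44 and 9.65 to 10.06 and 10.02 (0.50 ± 0.09, adjusted p = 0.024). LGALS3BP, a secreted galectin-binding glycoprotein, fell from 11.45 and 11.47 to 10.93 and 10.84 (-0.58 ± 0.09, adjusted p = 0.0081). BST2, the tetherin gene, read 5.41 and 5.49 against 5.83 and 5.94 and did not pass (adjusted p = 0.40).

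Of 24 sensors and restriction factors, 1 rose and 1 fell (4.17% each, against 0.815% and 2.26% of all genes). With FLI1 shRNA against untreated 10 of the 24 rose (41.7%, against 14.2% of all genes) and 0 fell. CGAS, the cytosolic DNA sensor, read 5.73 and 5.62 against 6.15 and 6.03 (0.42 ± 0.09, adjusted p = 0.042). APOBEC3B, a cytidine deaminase active against retroviral DNA, fell from 9.64 and 9.79 to 9.22 and 9.09 (-0.56 ± 0.09, adjusted p = 0.01). FLI1 shRNA arrays were at 5.75 and 5.78 for CGAS and at 9.46 and 9.53 for APOBEC3B. Of 12 antigen presentation genes 1 rose (8.33%) and the other 11 did not pass. The risen gene, B2M, the light chain of class I molecules, went from 11.12 and 11.16 to 11.61 and 11.64 (0.48 ± 0.06, adjusted p = 0.0047).

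The RNA interference machinery that the hairpin uses was close to untreated levels. Of its 14 genes, 0 rose (limma, 3 higher and 3 lower at an unadjusted p under 0.05) and 1 fell (7.14%, against 2.26% of all genes). That gene, TARBP2, a partner of Dicer, went from 9.37 and 9.31 to 8.78 and 8.95 (-0.47 ± 0.09, adjusted p = 0.021). DICER1 differed by 0.30 ± 0.07 (adjusted p = 0.061) and AGO2 by 0.19 ± 0.07 (adjusted p = 0.19).

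**Figure D3:**
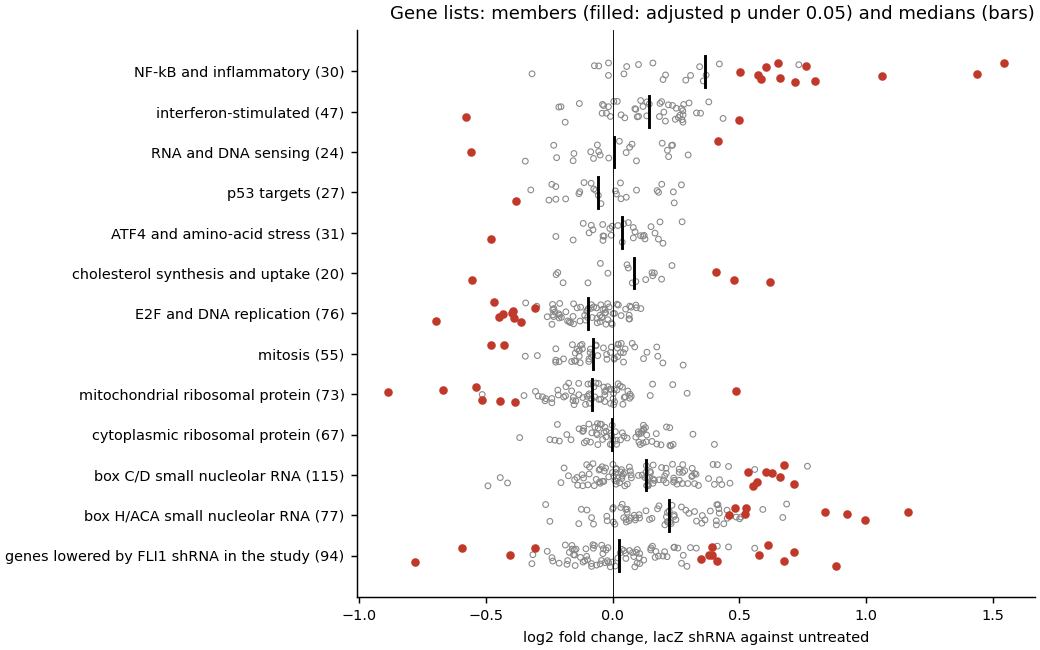
Log2 fold change, lacZ shRNA against untreated (x axis), of the members of 13 gene lists (y axis, number measured in brackets). Each circle is a gene, filled where the adjusted p is under 0.05, and black bars are list medians. The NF-kB and inflammatory list has its median at 0.36, the box H/ACA list, which includes Cajal-body RNAs, at 0.22 and E2F genes at -0.10.

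Small nuclear and nucleolar RNAs were among the rises. By RefSeq gene type, 16 of the 150 risen genes encode small RNAs (10.7%, against 2.02% of all genes tested), whereas 0 of the 416 fallen genes do. That annotation may leave out some small RNAs named elsewhere in the text. Box H/ACA RNAs guide pseudouridylation. Their list here also holds Cajal-body guide RNAs such as SCARNA12, and box types were not told apart among these. Of its 77 members 8 rose (10.4%, against 0.815% of all genes) and 0 fell (limma, 29 higher and 0 lower at an unadjusted p under 0.05), with a median of 0.22. Box C/D RNAs guide ribose methylation, and 8 of 115 rose (6.96%) and 0 fell (24 higher and 2 lower unadjusted), with a median of 0.13. FLI1 shRNA against DMSO gave 0 of these 8 box C/D members as risen and 1 as fallen. It gave 2 of the 8 risen box H/ACA members as risen and 0 as fallen (12.7% of all genes rose there and 11.6% fell). For FLI1 shRNA against untreated the medians over all members were -0.06 for box C/D and -0.01 for box H/ACA. Neither list kept a risen member with any of the 4 arrays left out.

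These RNAs also differed within the DMSO pair. SCARNA12, a Cajal-body guide RNA, read 9.82 and 9.77 in untreated and 10.99 and 10.93 in lacZ arrays (1.16 ± 0.25, adjusted p = 0.037), and 10.83 and 9.79 in the DMSO arrays, a gap near the size of its change. SCARNA7 read 7.50 and 7.63 against 8.52 and 8.46, and 7.95 and 7.69 with DMSO. SNORA33, a dim probe set, read 4.86 and 4.56 against 5.71 and 5.70, and 5.32 and 4.77 with DMSO. DMSO replicate 1 was higher than DMSO replicate 2 for 16 of the 16 members of the box C/D and H/ACA lists that rose. The share over all genes was 49.5%. Over all members of these lists the median within-pair difference was 0.15 and 0.19, against -0.0016 for all genes.

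TERC, the RNA template of telomerase, read 8.36 and 8.43 in untreated, 9.23 and 9.29 in lacZ, 8.95 and 8.63 in DMSO and 9.32 and 9.30 in FLI1 shRNA arrays (0.86 ± 0.11, adjusted p = 0.004). The replication-dependent histone gene H4C14, whose transcript ends in a stem-loop and which has a near-identical copy, read 11.44 and 11.65 against 12.50 and 12.52 (0.96 ± 0.22, adjusted p = 0.048), and 12.69 and 11.73 with DMSO. Of 56 histone genes 2 rose (3.57%, against 0.815% of all genes) and 1 fell (1.79%, against 2.26%), with a median of -0.08. EMP1, an epithelial membrane protein, rose from 9.24 and 9.40 to 10.24 and 10.20 (0.90 ± 0.16, adjusted p = 0.017) and read 9.46 and 8.95 with DMSO. Against DMSO, H4C14 and SCARNA12 did not pass (adjusted p = 0.54 and 0.21).

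Fallen genes were brighter than most. Their median level in untreated cells was 9.58, against 7.44 for all genes and 8.87 for those that rose, and 413 of the 416 code for protein (99.3%, against 91.8% of all genes and 86.0% of the risen). Their median span in the genome, 19304.5 bp, was near that of the risen genes (20969 bp) and of all genes (24471 bp).

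MAPRE3, a microtubule end-binding protein, showed the largest fall. It read 8.24 and 8.25 in untreated and 6.83 and 6.66 in lacZ arrays, a change of -1.50 ± 0.15 (adjusted p = 0.0017), which left it 35.4% of the untreated signal. FLI1 shRNA arrays read 8.08 and 8.10 and DMSO arrays 7.94 and 8.27, so among these 4 groups only the lacZ arrays were low. ACTG2, smooth-muscle gamma actin, fell from 9.54 and 9.61 to 8.53 and 8.50 (-1.06 ± 0.07, adjusted p = 9e-05). It read 9.49 and 9.47 with FLI1 shRNA and 8.98 and 9.08 with DMSO. The difference between the hairpins, FLI1 against lacZ, was 1.34 (adjusted p = 0.00011) for MAPRE3 and 0.97 (adjusted p = 5.4e-06) for ACTG2.

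Other large falls were present with both hairpins. AAMP, an angio-associated cell migration protein, read 10.12 and 10.09 in untreated, 8.72 and 8.58 in lacZ, and 8.89 and 9.02 in FLI1 shRNA arrays (-1.46 ± 0.20, adjusted p = 0.0062 for lacZ against untreated). MED10, a Mediator subunit, read 10.11 and 10.14, 9.07 and 9.05, and 9.20 and 9.24 (-1.06 ± 0.08, adjusted p = 0.00051). DDT, D-dopachrome tautomerase, read 11.34 and 11.29, 9.95 and 10.04, and 10.04 and 10.04 (-1.32 ± 0.14, adjusted p = 0.0019), although its probes may also detect its close relative DDTL. The mitochondrial fission gene FIS1 fell by 0.90 on the log2 scale and the antizyme gene OAZ2 by 0.88 (adjusted p = 0.0069 and 0.0022).

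The DMSO arrays qualify some of these falls. AAMP was at 9.43 in DMSO replicate 1 and at 10.24 in DMSO replicate 2, and DDT was at 10.61 and 11.14. MED10 lay closer together, at 9.89 and 10.02. All 14 largest falls had both lacZ arrays below both DMSO arrays. DMSO replicate 1 was the lower of the DMSO pair for 13 of these 14 genes, and for 50.5% of all genes. The genes were chosen for low lacZ readings, which partly sets the first count, and its share over all genes was not counted.

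C6orf47, of unassigned function here, fell from 8.39 and 8.03 to 7.20 and 7.07 (-1.08 ± 0.16, adjusted p = 0.0082). Against DMSO it did not pass (-0.50, adjusted p = 0.14). The RAS-association gene RASSF3 and the single-stranded DNA-binding factor gene FUBP3 fell by 0.98 and 0.95 on the log2 scale, with adjusted p of 0.0034 and 0.0026. CDK11A, TARP and SERPINB7, at -1.03, -0.92 and -0.87, were also among the 14. CDK11A has a near-identical neighbour, and the other probe set of TARP, a gene within the T-cell receptor gamma locus, differed by 0.24, so these are uncertain.

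**Figure D4:**
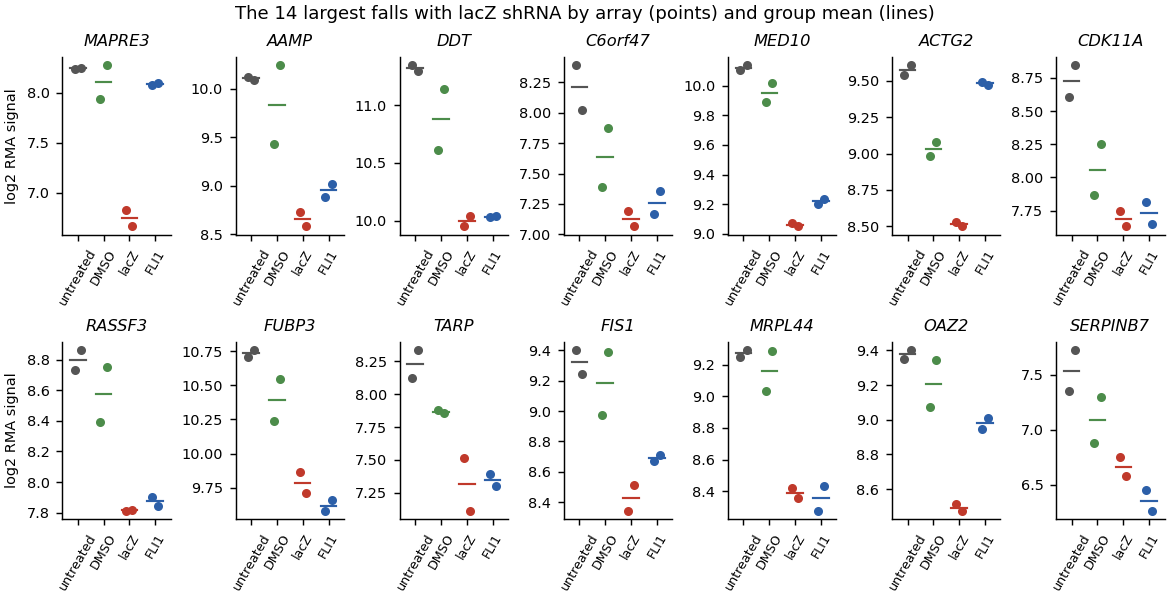
Log2 RMA signal (y axis) of the 14 genes with the largest falls in untreated, DMSO, lacZ shRNA and FLI1 shRNA cells (x axis), with a point for each array and a line at the group mean, each panel on its own scale. FLI1 shRNA arrays lie near untreated arrays for MAPRE3 (8.08 and 8.10) and ACTG2 (9.49 and 9.47) and near lacZ arrays for DDT (10.04 and 10.04).

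DNA replication genes were slightly lower. Of 76 E2F and replication genes, 9 fell (11.8%, against 2.26% of all genes) and 0 rose (limma, 26 lower and 0 higher at an unadjusted p under 0.05), with a median of -0.10. TK1, thymidine kinase, fell from 11.19 and 11.17 to 10.55 and 10.42 (-0.70 ± 0.11, adjusted p = 0.01). The replicative helicase subunit MCM5 fell from 10.86 and 10.98 to 10.52 and 10.45 (-0.43 ± 0.07, adjusted p = 0.015). The primase subunit PRIM2 and the GINS subunit GINS3 fell by 0.47 and 0.45. The count dropped to 0 or 1 with any of the 4 arrays left out and to 0 with DMSO as the control (1.8% of all genes fell there, and 27 members were lower unadjusted). DMSO replicate 1 was lower than DMSO replicate 2 for 7 of the 9 that fell with lacZ shRNA, and for 50.5% of all genes. Their median within-pair difference was -0.09, and TK1 read 10.73 and 11.12 in DMSO arrays. With FLI1 shRNA against untreated 72 of the 76 fell (94.7%, against 12.1% of all genes), with a median of -0.86. That comparison includes the knock-down as well as virus, selection and time. Of 55 mitotic genes 2 fell (3.64%), the kinetochore gene SPC24 (-0.48) and the spindle gene TACC3 (-0.43).

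Some mitochondrial genes fell. Of 73 mitochondrial ribosomal protein genes 6 fell (8.22%, against 2.26% of all genes) and 1 rose, with a median of -0.08. With DMSO as the control 2 fell (1.8% of all genes did). DMSO replicate 1 was lower than DMSO replicate 2 for 6 of the 6 that fell against untreated, and for 50.5% of all genes. Their median within-pair difference was -0.23. MRPL44 fell from 9.25 and 9.30 to 8.42 and 8.35 (-0.89 ± 0.11, adjusted p = 0.004), and FLI1 shRNA arrays read 8.27 and 8.43. MRPL28, at 11.50 and 11.50 against 10.85 and 10.81, fell by 0.67 on the log2 scale (adjusted p = 0.011). Of 51 oxidative phosphorylation genes 3 fell (5.88%) and 0 rose (limma, 8 lower and 4 higher at an unadjusted p under 0.05), led by the complex I subunit NDUFS7 (-0.75 ± 0.07, adjusted p = 0.0011) and the ATP synthase subunit ATP5F1D (-0.71 ± 0.08, adjusted p = 0.0034). Of 67 cytoplasmic ribosomal protein genes 0 changed (9 higher and 5 lower unadjusted). Fewer than 3 mitochondrial ribosomal protein genes fell with any of the 4 arrays left out.

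The lacZ arrays served in the study as the baseline for genes lowered by EWS-FLI1 knock-down. Of 94 measured genes that the study lists as lowered by FLI1 shRNA, 10 rose (10.6%, against 0.815% of all genes) and 4 fell (4.26%, against 2.26%) with lacZ shRNA against untreated, and the median change was 0.02. That list was chosen on comparisons with these lacZ arrays, so its rises are not independent evidence of a direction. SYNPR, a synaptic vesicle protein, read 8.61 and 8.72 in untreated, 9.61 and 9.49 in lacZ, and 7.90 and 8.00 in FLI1 shRNA arrays. Its change was 0.88 ± 0.11 (adjusted p = 0.0034) for lacZ shRNA against untreated and -1.59 for FLI1 against lacZ shRNA, comparisons that share the lacZ arrays. DPYSL5, an axon guidance adaptor, read 10.16 and 10.22, 9.45 and 9.38, and 7.97 and 7.95 in the same order (-0.78 ± 0.08, adjusted p = 0.0017 for lacZ against untreated). The list's median was -1.19 for FLI1 against lacZ shRNA, and -1.20 for FLI1 shRNA against untreated and against DMSO.

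Literature lists of EWS-FLI1 targets held few changed genes. Of 43 activated genes 2 rose (4.65%, against 0.815% of all genes), the peptide hormone gene CCK (0.55 ± 0.09, adjusted p = 0.014) and the lipase gene LIPI (0.35 ± 0.08, adjusted p = 0.042), and 0 fell (limma, 2 lower at an unadjusted p under 0.05). Of 41 repressed genes PTX3 and the hyaluronan receptor CD44 rose (4.88%) and 1 fell (2.44%, against 2.26% of all genes). That fallen gene, smooth-muscle actin ACTA2, went from 11.14 and 11.26 to 10.63 and 10.62 (-0.58 ± 0.08, adjusted p = 0.008). List medians were 0.06 and 0.07.

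Genes that changed with lacZ shRNA also differed between the DMSO arrays, which had neither virus nor puromycin. DMSO replicate 1 was lower than DMSO replicate 2 for 323 of the 416 fallen genes (77.6%, median difference -0.08) and higher for 118 of the 150 risen genes (78.7%, median 0.11), against 49.5% higher for all genes. Across 7654 genes with a mean over 8, the difference within the DMSO pair had a Pearson r of 0.43 with the change between lacZ shRNA and untreated, and of 0.29 to 0.50 for the 4 single pairings of arrays. Across all 18404 genes r was 0.16, and -0.07 to 0.34 for the pairings. These points share 4 arrays on the y axis and 2 on the x axis, were normalized together, and genes are not independent replicates. Of the 12 NF-kB list members that rose, DMSO replicate 1 was higher for 8, with a median within-pair difference of 0.08, and over all 30 members the median was -0.02. The part of the DMSO pair's difference in these results was not tested.

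**Figure D5:**
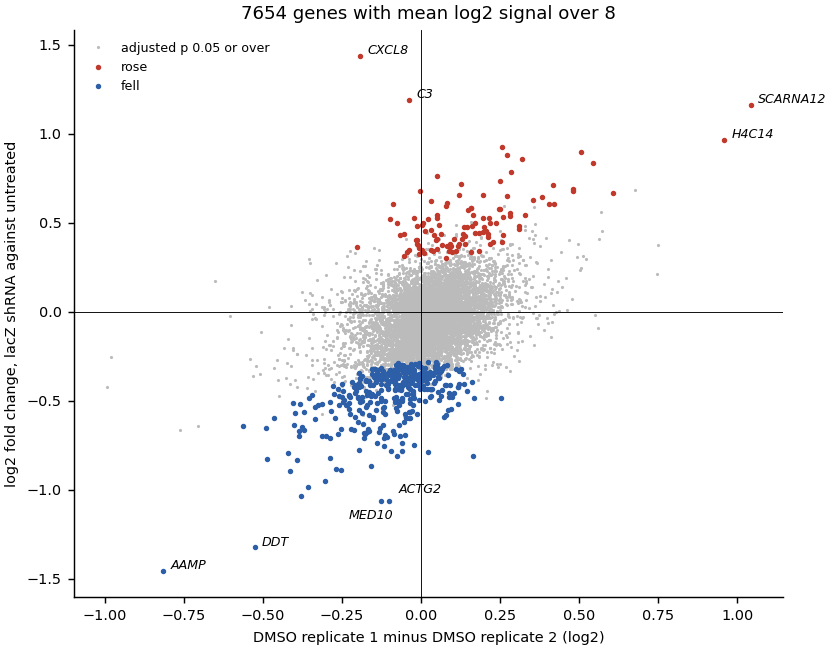
Each point is a gene with a mean log2 signal over 8, with DMSO replicate 1 minus DMSO replicate 2 on the x axis and the log2 fold change, lacZ shRNA against untreated, on the y axis. Red points rose and blue points fell at an adjusted p under 0.05. SCARNA12 and H4C14 are far above 0 on both axes and AAMP and DDT far below 0 on both. CXCL8 (x value -0.19) and C3 are high on the y axis with x values below 0. Of the 12 NF-kB list members that rose, 8 had DMSO replicate 1 higher.

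A comparison of groups without shared arrays, FLI1 shRNA against DMSO, was examined after the values were seen. Its spread per gene came from the same fit of all 12 arrays, so its calls are not independent of the main ones. Of the 150 risen genes 92 rose there (61.3%, against 12.7% of all genes), 15 fell and 43 did not pass. Of the 416 fallen genes 181 fell (43.5%, against 11.6%), 31 rose and 204 did not pass. The shared genes were 3.94% of the 2337 genes that rose and 8.50% of the 2129 that fell in that comparison. That comparison includes the knock-down of EWS-FLI1 as well as virus, selection and time, and the DMSO pair enters it.

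Under 17 alternative settings, 6 of the 14 largest rises (TNFRSF9, CXCL8, TDO2, C3, ICAM1 and QPCT) and 4 of the 14 largest falls (MAPRE3, DDT, MED10 and OAZ2) kept their direction and an adjusted p under 0.05 in each setting that tested them. TDO2 and QPCT were not tested where dim genes were left out.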

How the data were processed

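Total RNA (100 ng per array) of A673 cells was hybridised to Affymetrix HuGene 1.0 ST arrays, 2 for each of 6 groups taken from the labels. The authors deposited log2 values made by RMA, which corrects background, normalizes between arrays and summarises probes, with the affy package (version not given in the sources used here). RMA compresses changes of dim genes. No scan was reprocessed, and every value column belonged to a sample. Precision is limited by the number of arrays.

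Of 32321 rows, 19158 carry a single gene symbol, 1388 several and 11775 none. Only the first were tested, and each of the 637 genes with several probe sets was read from its brightest over the 12 arrays, which left 18404 genes. Differences were fitted by limma 3.58.1 under R 4.3.3 (group means over all 12 arrays, contrasts, eBayes, 6 residual and 4.45 prior degrees of freedom) and adjusted by Benjamini-Hochberg over all genes. The paper's thresholds, a fold over 2 and an adjusted p under 0.01, define the stricter counts. The fit was tested on simulated data.

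The members and gene lists were chosen with earlier results of these data known. Lists come from general knowledge, apart from the study's own list of genes lowered by FLI1 shRNA. Named genes are the 14 largest rises and 14 largest falls among genes whose arrays do not overlap (fewer passed the stricter thresholds, so an adjusted p under 0.05 was used), up to 4 members with the largest change in each list, FLI1 and EWSR1. Other genes, among them list members past those 4, CCND1 and FOSB, were chosen after their values were seen. Promoters come from RefSeq (GRCh38.p14). Alternatives were the replicate block, only the 4 arrays, a filter on dim genes (under the 40th percentile of level), all rows, probe sets averaged, quantile normalization again, centring on 67 ribosomal protein genes, trend and robust eBayes, treat at a fold of 1.2, DMSO as the control and each array left out. DMSO replicates singly, the fit without DMSO replicate 1, crossed numbers and FLI1 shRNA against DMSO were added after the values were seen.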

Additional observations from a re-analysis of the deposited data

How the results depend on the processing

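Many counts moved by over 1.5 times when an array was left out or the spread was estimated in another way. Main counts were 150 genes higher and 416 lower, 7 and 6 past the stricter thresholds, 12 NF-kB, 8 box C/D and 8 box H/ACA members risen, 9 E2F and 6 mitochondrial ribosomal protein members fallen, and 10 risen and 4 fallen of the genes lowered by FLI1 shRNA in the study. With lacZ replicate 1, lacZ replicate 2, untreated replicate 1 or untreated replicate 2 left out, where the lone array is taken to vary like the other groups, they were in this order 12 to 24, 22 to 92, 2 to 4, 1 to 3, 3 to 7, 0 to 0, 0 to 0, 0 to 1, 0 to 2, 1 to 2 and 1 to 1. The replicate numbers pair nothing in the labels, and the 1-minus-2 deviations of the lacZ and untreated arrays correlated at -0.45. The replicate block gave 106 genes higher and 251 lower, 2 box C/D, 5 E2F, and 6 risen and 1 fallen genes of the study's list, and crossed numbers gave 97, 240, 2, 4 and 1 fallen, with 5 box H/ACA members. Only the 4 arrays gave 51 higher and 94 lower, 1 E2F, 2 mitochondrial, and 4 and 2 of the study's list. Leaving out dim genes, which tests fewer genes, gave 325 and 941, with 17 box H/ACA, 14 E2F and 10 mitochondrial members. Testing all rows gave 79 and 177, and 4 and 2 past the stricter thresholds. Trend and robust eBayes gave 372 and 931, with 14 box C/D, 16 box H/ACA, 17 E2F and 11 mitochondrial members. The treat test gave 7 and 15, 3 lower past the stricter thresholds, 3 NF-kB members, 0 of the other lists and 1 fallen gene of the study's list. Quantile normalization again left 2 fallen genes of the study's list and moved the share of calls that were higher from 26.5% to 38.5%, against 22.5% with ribosomal protein centring. DMSO as the control gave 147 and 331, 2 lower past the stricter thresholds, 2 box C/D, 4 box H/ACA, 0 E2F, 2 mitochondrial and 2 fallen genes of the study's list. DMSO replicate 2 alone gave 65 and 90, 11 higher past the stricter thresholds, 2 box C/D, 5 box H/ACA, 1 E2F, 3 mitochondrial, and 5 and 2 of the study's list. DMSO replicate 1 alone gave 27 and 29, 1 lower past the stricter thresholds, 0 box C/D, box H/ACA, E2F and mitochondrial members, and 1 and 1 of the study's list. With it H4C14 (-0.18) and SCARNA17 (-0.010) reversed, and the cause was not tested. The fit of 11 arrays without DMSO replicate 1 kept every count within 1.5 times. The NF-kB count was 8 to 15 in all settings but treat and the left-out arrays.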

Other observations

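Some sterol synthesis and adhesion genes changed. Of 20 cholesterol genes 3 rose (15.0%, against 0.815% of all genes) and 1 fell (5.00%, against 2.26%), with a median of 0.08. HMGCS1, which makes the precursor of mevalonate, went from 9.11 and 9.12 in untreated to 9.79 and 9.69 in lacZ arrays (0.62 ± 0.07, adjusted p = 0.0032), and FLI1 shRNA arrays read 10.49 and 10.54. The demethylase CYP51A1 rose by 0.48 ± 0.07 (adjusted p = 0.008), although its other probe set differed by -0.27, and the methyl oxidase MSMO1 rose by 0.41. Mevalonate kinase, MVK, fell from 8.29 and 8.19 to 7.69 and 7.68 (-0.56 ± 0.12, adjusted p = 0.042). Of 37 integrin and adhesion genes 3 rose (8.11%) and 4 fell (10.8%). The integrin gene ITGAV rose from 9.06 and 9.14 to 9.60 and 9.54 (0.47 ± 0.08, adjusted p = 0.015). The falls were the actin gene ACTA2 and the focal-adhesion or actin-binding genes ZYX (-0.39), ACTN1 (-0.36) and VCL (-0.29), all of which read higher in FLI1 shRNA than in untreated arrays. NF2, the merlin tumour suppressor, fell from 9.15 and 9.19 to 8.55 and 8.45 (-0.68 ± 0.08, adjusted p = 0.0034) and read 9.25 and 9.18 with FLI1 shRNA. The collagenase MMP1 rose from 12.26 and 12.27 to 12.75 and 12.75 (0.49 ± 0.07, adjusted p = 0.0088), and DMSO arrays read 12.02 and 11.97.

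Counts for p53, ATF4, unfolded protein and heat shock genes lay near the share of all genes called (0.815% higher and 2.26% lower). Of 27 p53 targets 1 fell (3.70%), MDM2, by 0.38 on the log2 scale (adjusted p = 0.03) and 0 rose (limma, 4 higher at an unadjusted p under 0.05). Of 31 ATF4 genes 1 fell (3.23%), the glycine transporter SLC6A9, by 0.48 (adjusted p = 0.008) and 0 rose (3 higher unadjusted). Of 24 unfolded protein response genes 0 changed (5 higher and 3 lower unadjusted), as did 0 of 24 heat shock genes (1 higher and 6 lower unadjusted). Of 29 immediate-early genes JUNB (0.53) and IER3 (0.35) rose (6.90%) and JUND (-0.60) fell (3.45%). Of 33 apoptosis genes 1 rose (3.03%), BIRC2, an inhibitor of apoptosis (0.38). The survival gene BCL2L1 (-0.60) and the mitophagy gene BNIP3 (-0.48) fell (6.06%). The growth-factor gene HBEGF rose from 9.13 and 9.17 to 9.66 and 9.70 (0.53 ± 0.07, adjusted p = 0.004). Of 189 microRNA precursors 1 rose (0.529%), MIR196A1, from 5.97 and 5.70 to 6.20 and 6.36 (0.45 ± 0.10, adjusted p = 0.044).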
